A study of Mus musculus with 6 samples.

Results

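The BCL2 family and the caspase inhibitor *Xiap* were followed in mouse granulosa cells (GCs), the follicle's somatic cells, which enclose and nourish the oocyte. The 9 genes were taken by name from a table of 16300 genes, and all 9 were among the 16292 genes that passed the filter on low values. They comprised the pro-survival genes *Bcl2*, *Bcl2l1*, *Mcl1* and *Xiap*, the pore-forming effectors *Bax* and *Bak1*, and the BH3-only genes *Bcl2l11*, *Bbc3* and *Bmf*. RNA-seq was made from 6 libraries of primary GC cultures from wild type C57BL/6J mice aged 8 to 9 weeks, 3 control and 3 exposed for 24 h to dihydrotestosterone (DHT, 25 nM), an androgen that aromatase does not turn into estrogen. Each library pooled the GCs of several animals. The treatment characteristic of the labels names the group, while their free text gives DHT for every sample and describes whole ovary as the extracted material. With 3 libraries per group, the p-values measure the spread between these pools.

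Follicles that do not ovulate are lost by atresia, and the apoptosis of GCs is its hallmark. In the mitochondrial pathway, BH3-only proteins bind and neutralize the pro-survival proteins or activate BAX and BAK directly, BAX and BAK then open pores in the outer mitochondrial membrane, and released cytochrome c leads to the activation of caspases, which XIAP can block. Gonadotropins and insulin-like growth factors are known as survival signals of GCs. For androgens, the study cites work in which they prevented atresia, and it describes their excess as detrimental. FOXO factors, which are held out of the nucleus by AKT and SGK1, are known activators of BH3-only genes.

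Levels are given as normalized counts, a gene's reads scaled by a library-wide size factor. Of the 9 genes, 1 passed an adjusted p of at most 0.05 (limma with Benjamini-Hochberg adjustment over all genes tested), against 11.2% of all genes (1823 of 16292). That gene was *Bmf*, which was higher in DHT-treated GCs, and 6.52% of all genes were called higher and 4.66% lower. The share of members called, 11.1%, was close to that of all genes. No member passed the adjusted p together with an absolute log2 fold change above 1, against 1.31% of all genes (213), with 0.908% higher and 0.399% lower. An unadjusted p under 0.05 was reached by 3 of the 9 members, *Mcl1*, *Bax* and *Bmf*, and by 4101 of all 16292 genes. The count of 1823 fell to 970 without DHT replicate 2 and to 931 without DHT replicate 3, and the count of 213 fell to 138 without DHT replicate 3.

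The promoter sequences of the BH3-only genes are shown because these genes are the known FOXO targets of the family and *Bmf* was the member that changed. The windows run from 250 bases before to 50 bases after each RefSeq transcript start (GRCm38.p6), and the stretches printed lie outside annotated exons. The first is the *Bmf* promoter at chr2:118549688-118549936, minus strand, with 53.8% G and C. The second is the *Bcl2l11* promoter at chr2:128125788-128126037, plus strand, with 72% G and C. The last is a stretch of the *Bbc3* promoter at chr7:16310067-16310126, plus strand. Capitals mark the FOXO motif GTAAACA or its reverse complement.
Bmf: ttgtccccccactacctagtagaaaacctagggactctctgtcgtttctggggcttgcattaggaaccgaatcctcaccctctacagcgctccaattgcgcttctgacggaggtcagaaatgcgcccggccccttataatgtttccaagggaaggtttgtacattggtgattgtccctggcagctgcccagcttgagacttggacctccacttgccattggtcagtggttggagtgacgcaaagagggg
Bcl2l11: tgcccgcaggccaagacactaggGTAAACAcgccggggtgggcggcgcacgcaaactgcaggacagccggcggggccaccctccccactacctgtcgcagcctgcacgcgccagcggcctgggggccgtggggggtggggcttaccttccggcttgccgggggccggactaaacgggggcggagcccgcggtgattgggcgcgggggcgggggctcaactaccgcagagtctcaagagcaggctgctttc
Bbc3: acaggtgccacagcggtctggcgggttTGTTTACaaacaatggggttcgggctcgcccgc

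All 9 members matched RefSeq promoters, with 18 windows between them. The FOXO motif GTAAACA, searched on both strands, was found in 1 of 2 *Bcl2l11* windows, where it began at -227 from the start site, and in 1 of 3 *Bbc3* windows, at -167. It was found in none of the 3 *Bmf* windows, and in 3.65% of all 32851 windows. The hexamer AGAACA of the androgen receptor element, searched on both strands, was found in 2 of 3 *Xiap* windows, at -230 and -17, and in no window of another member. It occurred in 19.0% of all windows. The decamer motif of p53 was found in the *Bax* window, at -201, and in 1 *Bmf* window, at -213, against 8.36% of all windows. A match of letters is a description of these windows and not a binding site.

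*Bmf* (ENSMUSG00000040093; GRCm38, chr2:118528757-118549687, minus strand) encodes a BH3-only protein that is known to bind pro-survival proteins when it is released from the cytoskeleton. Its normalized counts were 488, 463 and 471 in control replicates 1, 2 and 3, and 609, 711 and 810 in DHT replicates 1, 2 and 3. Every DHT library was above every control library, and the DHT libraries were more spread. The mean rose from 474 ± 12.8 to 710 ± 101 (SD, n = 3), a log2 fold change of 0.57 (SE 0.10, 95% interval 0.35 to 0.79), or 1.49-fold (1.28 to 1.73). The adjusted p was 0.0062 (limma with Benjamini-Hochberg adjustment), and *Bmf* ranked 622 among the genes tested by p. The adjusted p was 0.052 when the intensity trend was left out of limma, and between 0.0023 and 0.031 when any 1 library was left out. In bulk samples such as these, fewer cells of a type and less RNA per cell cannot be told apart. The luteal marker sum (3 genes) was 164 to 796 in control and 979 to 1314 in DHT libraries, most of it from *Ptgfr*, with a mean of 342 in control and 1000 in DHT-treated GCs. Of the other luteal markers, *Akr1c18* had means of 52.4 and 48.8. *Lhcgr* had means of 36.2 and 79.5, without overlap between groups. Its log2 fold change was 1.38 (unadjusted p = 0.019 and adjusted p = 0.110 by limma), so it was not called. The sum of 9 GC markers was 100660 to 108608 in control and 79375 to 84484 in DHT libraries, and *Inha*, with means of 54181 and 35515, made up the largest share of it. Of these 9, 4 were called lower, 1 higher (*Hsd17b1*, log2 fold change 0.48) and 4 neither, with a median log2 fold change of -0.06. The part of the luteal and GC markers in the rise of *Bmf* was not tested.

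The other BH3-only genes did not pass the test, and their groups overlapped. *Bcl2l11* (ENSMUSG00000027381; chr2:128126038-128162547, plus strand) encodes BIM, an activator of BAX and BAK. It stood at 510, 491 and 490 in the control libraries and at 490, 519 and 470 in the DHT libraries. The groups overlapped, and the log2 fold change was -0.01 (SE 0.07, adjusted p = 0.939 by limma), with a 95% interval of -10.6% to 10.1%. *Bbc3* (ENSMUSG00000002083; chr7:16308393-16318205, plus strand) encodes PUMA, a BH3-only protein known as a p53 target. Its counts were 759, 765 and 916 in the control libraries and 834, 817 and 748 in the DHT libraries. Control replicates 1 and 2 were below DHT replicates 1 and 2, while control replicate 3 was above every DHT library, so the groups overlapped. The log2 fold change was -0.02 (SE 0.08, adjusted p = 0.910 by limma), with an interval of -13.4% to 12.2%. The interval of *Bmf*, 27.7% to 73.4%, lay above those of *Bcl2l11* and *Bbc3*.

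**Figure D1:**
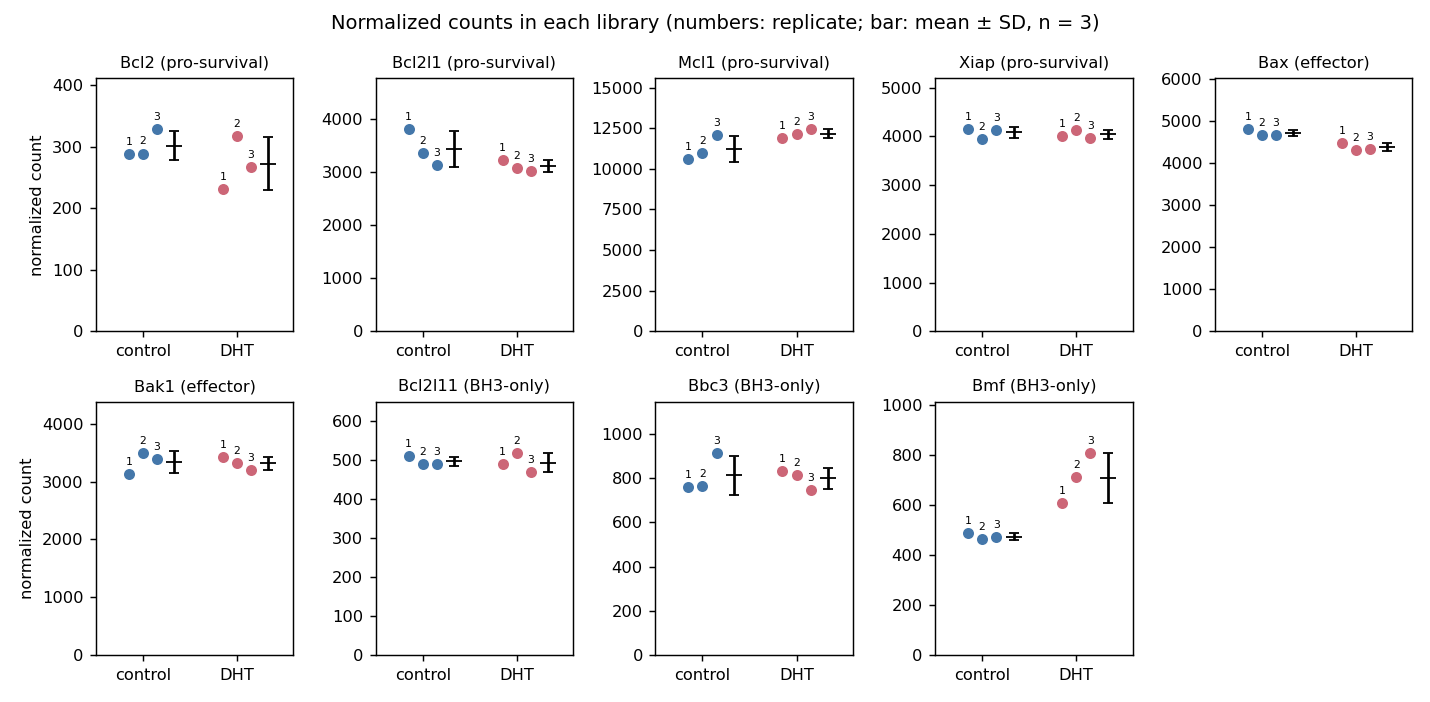
Normalized counts (y axis, from 0, with a scale of its own in each panel) of the 9 members in each control (blue) and DHT (red) library, with the replicate number above each point and the mean ± SD (n = 3) as a bar. *Bmf* and *Bax* have no overlap between groups, and *Bmf* moves from 474 to 710 while the others stay close to their control level.

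Of the effectors, *Bax* (ENSMUSG00000003873; chr7:45461697-45466898, minus strand) did not overlap between groups. It stood at 4820, 4674 and 4678 in the control libraries and at 4493, 4310 and 4353 in the DHT libraries. The means were 4724 ± 82.7 and 4386 ± 95.9, with a log2 fold change of -0.11 (SE 0.04) and a 95% interval of -12.2% to -1.85%. The unadjusted p was 0.0145, but the adjusted p was 0.093 (limma with Benjamini-Hochberg adjustment), so the gene was not called. Groups without overlap were found for 2 of the 9 members, *Bax* and *Bmf*, against 30.6% of all genes. *Bak1* (ENSMUSG00000057789; chr17:27019810-27029009, minus strand), the other effector, had counts of 3136, 3499 and 3389 in the control libraries and 3431, 3320 and 3201 in the DHT libraries. The groups overlapped, with a log2 fold change of -0.01 (SE 0.05, adjusted p = 0.933 by limma) and an interval of -8.07% to 7.36%. Exons of *Bax* share 12.2% of their bases with *Gm45808* on the same strand, and exons of *Bak1* share 18.2% with *Ggnbp1* on the opposite strand. The strand setting of the counting is not given in the sources used here, so reads from such stretches are uncertain.

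None of the 4 pro-survival genes was called by limma, and 1 had an unadjusted p under 0.05. *Mcl1* (ENSMUSG00000038612; chr3:95658788-95663176, plus strand) encodes a short-lived protein that holds BAK and BIM. It stood at 10580, 10962 and 12089 in the control libraries and at 11918, 12116 and 12448 in the DHT libraries. The highest control library was above the lowest DHT library, and the log2 fold change was 0.12 (SE 0.05, 95% interval 0.26% to 17.7%). The adjusted p was 0.185 by limma, and without control replicate 3 it was 0.024, with a log2 fold change of 0.18. *Bcl2l1* (ENSMUSG00000007659; chr2:152780668-152831728, minus strand) encodes BCL-XL in its long form, and a shorter splice form with the opposite action is counted with it. Its counts were 3813, 3367 and 3133 in the control libraries and 3234, 3077 and 3017 in the DHT libraries. Control replicates 1 and 2 were above every DHT library, and control replicate 3 was not. The log2 fold change was -0.14 (SE 0.07, adjusted p = 0.236 by limma), with an interval of -18.4% to 0.82%. It was -0.063 without control replicate 1 (adjusted p = 0.528 by limma) and -0.21 without control replicate 3 (adjusted p = 0.054).

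*Bcl2* (ENSMUSG00000057329; chr1:106538178-106714274, minus strand), the founding member of the family, had the widest interval of the 9 on the log2 scale. It stood at 288, 289 and 329 in the control libraries and at 232, 317 and 268 in the DHT libraries, and the groups overlapped. The log2 fold change was -0.16 (SE 0.12, adjusted p = 0.476 by limma), with an interval of -26.0% to 8.63%. It was -0.048 without DHT replicate 1 and -0.27 without DHT replicate 2. Exons of *Bcl2* share 6.09% of their bases with *D630008O14Rik* on the opposite strand. *Xiap* (ENSMUSG00000025860; chrX:42059679-42109656, plus strand), which inhibits caspases and is no BCL2 homolog, had counts of 4152, 3951 and 4138 in the control libraries and 4017, 4140 and 3965 in the DHT libraries. The log2 fold change was -0.01 (SE 0.04, adjusted p = 0.859 by limma), with an interval of -6.68% to 5.09%.

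By role, 0 of 4 pro-survival genes, 0 of 2 effectors and 1 of 3 BH3-only genes were called, against 11.2% of all genes. These groups hold too few genes to compare the roles by such counts. The median log2 fold change was -0.08 for the pro-survival genes, -0.06 for the effectors and -0.01 for the BH3-only genes. Over the 9 members it was -0.014, and over all genes tested -0.0052. The 8 members that were not called had 95% intervals between -26.0% and 17.7%, so that changes of 2-fold lay outside the interval of every member.

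**Figure D2:**
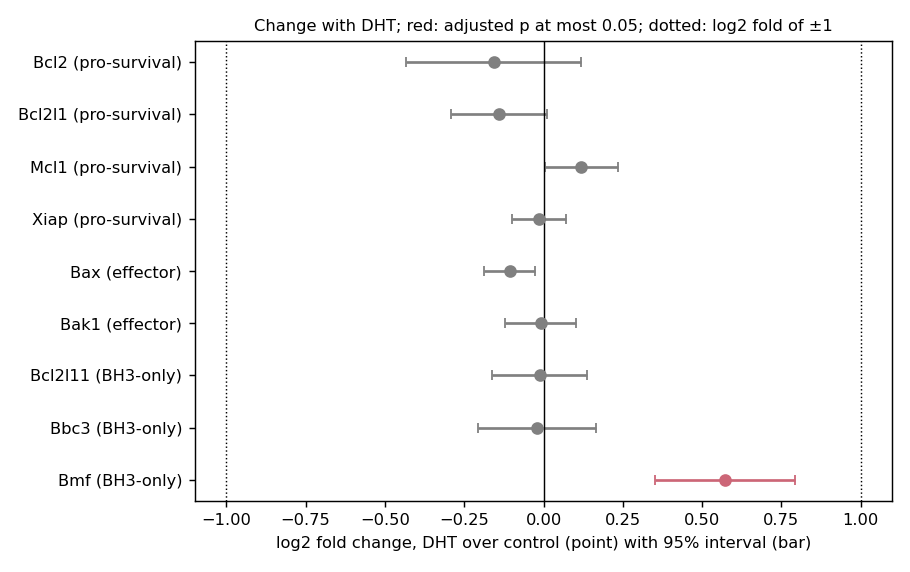
Log2 fold change of DHT over control (x axis) for each member, with the 95% interval from limma as a bar, dotted lines at the log2 fold of 1 in either direction and red for an adjusted p of at most 0.05. *Bmf*, at 0.57 (0.35 to 0.79), is the red point, and no interval reaches a dotted line.

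Levels of different genes were compared per kilobase of exon. In control GCs the highest levels were those of *Mcl1*, with 3280 ± 230 normalized counts per kb, and *Bax*, with 2997 ± 52.5 (SD, n = 3). *Bak1* followed with 1388 ± 77.4, *Bcl2l1* with 750 ± 75.4, *Xiap* with 431 ± 11.8 and *Bbc3* with 383 ± 42.0. The lowest were *Bmf* with 90.2 ± 2.44, *Bcl2l11* with 61.9 ± 1.38 and *Bcl2* with 33.0 ± 2.55. Neighbours in this order overlapped between their control libraries for *Xiap* and *Bbc3* alone. The order of the means was the same in DHT-treated GCs, where *Bmf* stood at 135 ± 19.1 per kb. *Bmf* was below *Bbc3* and above *Bcl2l11* in both groups.

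**Figure D3:**
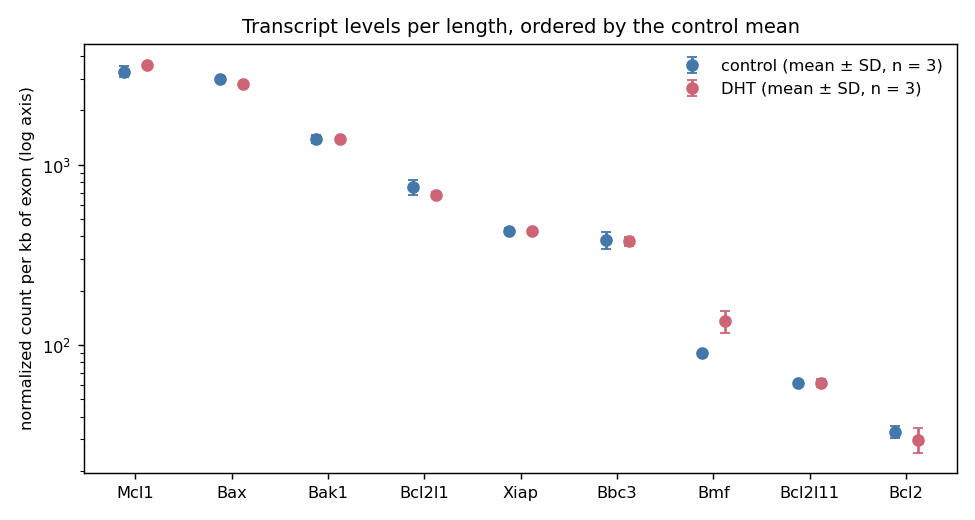
Normalized counts per kb of exon (y axis, log scale) for each gene, ordered by the control mean, with points for the mean and bars for the SD of 3 control (blue) and 3 DHT (red) libraries. *Mcl1* and *Bax* head the order near 3280 and 2997 and *Bcl2* ends it at 33.0 in control GCs, and *Bmf* is the gene whose red and blue points stand furthest apart.

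Summed per kb, the 3 pro-survival BCL2 proteins' transcripts (*Bcl2*, *Bcl2l1* and *Mcl1*) amounted to 4062 ± 168 in control and 4266 ± 57.3 in DHT-treated GCs. The effectors amounted to 4386 ± 30.4 and 4161 ± 101. The BH3-only genes amounted to 535 ± 40.8 and 573 ± 10.5. These sums are descriptions without a test. Of the BH3-only sum, *Bmf* made up 18.1%, 17.3% and 15.4% in the control libraries and 20.3%, 23.2% and 27.3% in the DHT libraries, without overlap. The mean share was 16.9% ± 1.38 in control and 23.6% ± 3.50 in DHT-treated GCs.

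The balance between pro-survival and pro-death genes was compared as 7 log2 ratios within each library, which do not depend on its size factor. An exact permutation test of 3 libraries against 3, two-sided, cannot give a p below 0.1, and after adjustment over the 7 ratios by Benjamini-Hochberg no p was below 0.467. *Bcl2*/*Bmf* was -0.76, -0.68 and -0.52 in the control libraries and -1.39, -1.16 and -1.60 in the DHT libraries, without overlap. The means were -0.65 ± 0.12 and -1.38 ± 0.22, a difference of -0.73 (exact permutation p = 0.1, adjusted p = 0.467). *Bmf* is in this ratio alone, and its own log2 fold change of 0.57 is part of the difference. The ratio is therefore no result apart from the rise of *Bmf*.

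The other 6 ratios overlapped between groups. *Bcl2*/*Bax*, the ratio often used as an index of GC survival, differed by -0.05 (-3.97 ± 0.12 and -4.02 ± 0.26, exact permutation p = 0.9). *Bcl2l1*/*Bax* differed by -0.03 (exact permutation p = 0.7) and *Bcl2l1*/*Bak1* by -0.13 (exact permutation p = 0.4), or -0.0090 without control replicate 1. The ratios of *Mcl1* were all higher in value in DHT-treated GCs, by 0.13 over *Bak1* (exact permutation p = 0.2), 0.13 over *Bcl2l11* (p = 0.3) and 0.14 over *Bbc3* (p = 0.2), and they share the *Mcl1* value. They were as low as 0.080 over *Bak1* without control replicate 2, 0.072 over *Bcl2l11* without control replicate 1 and 0.076 over *Bbc3* without DHT replicate 3. *Bcl2*/*Bax* turned to 0.02 without control replicate 3 and to 0.08 without DHT replicate 1, and *Bcl2l1*/*Bax* turned to 0.03 without control replicate 1.

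**Figure D4:**
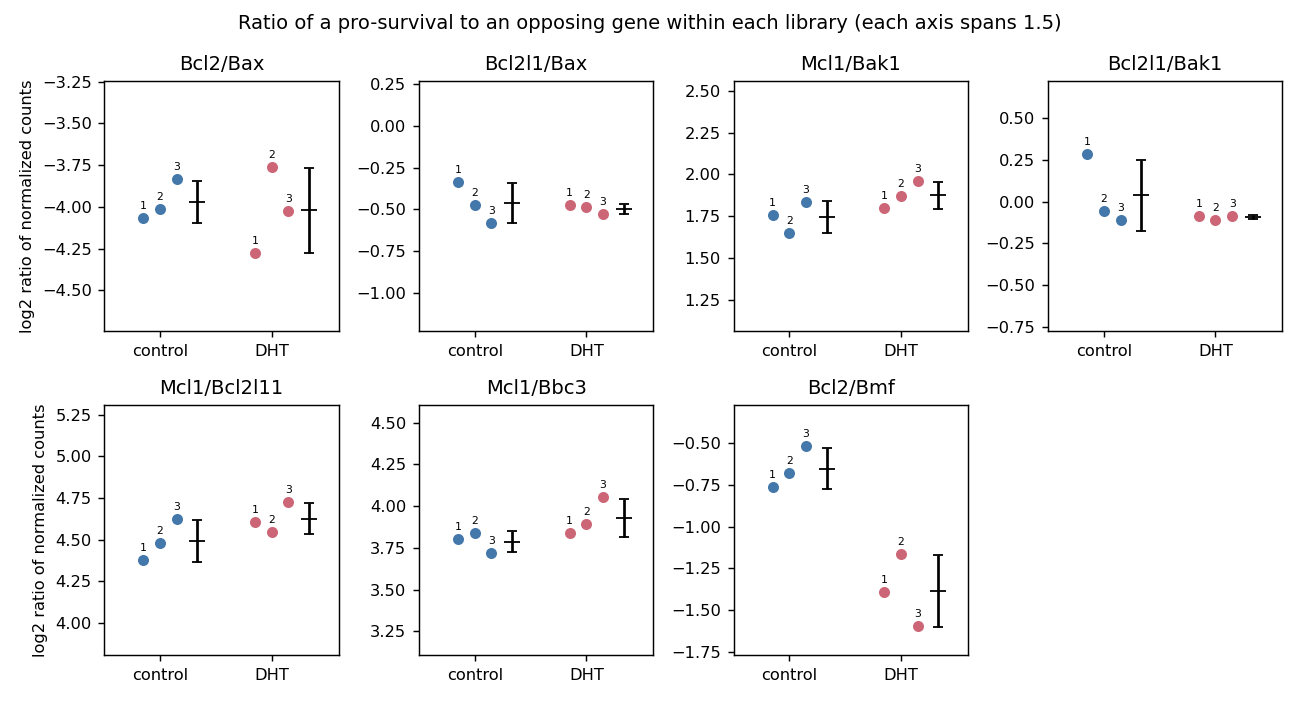
Log2 ratio of the normalized counts of a pro-survival to an opposing gene (y axis, spanning 1.5 in every panel) in each control (blue) and DHT (red) library, with the replicate number at each point and the mean ± SD (n = 3) as a bar. Only *Bcl2*/*Bmf* of the 7 ratios has no overlap between groups, with a difference of -0.73, and it is the only ratio that holds *Bmf*.

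Around these members, 9 lists of genes that act with them held 99 genes, of which 86 were tested and the others were not analysed here. DHT-treated GCs had 7 of the 86 higher and 10 lower at an adjusted p of at most 0.05 (limma with Benjamini-Hochberg adjustment), or 19.8%. Of all genes, 11.2% were called, with 6.52% higher and 4.66% lower. With the filter raised to a mean of at least 50, 14.5% of all genes were called and the lists kept 17. The lists were chosen with earlier results of these data known, so their share is only a description. The count of 17 was 11 without DHT replicate 2, 11 without DHT replicate 3 and 9 without the intensity trend. The median log2 fold change of the 86 was -0.0052, beside -0.0052 over all genes.

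Of the other pro-apoptotic BCL2 family genes, 3 of 8 rose and none fell, with a median log2 fold change of 0.12. *Bok*, an effector known in the ovary, stood at 1409, 1494 and 1387 in the control libraries and at 1727, 1936 and 2120 in the DHT libraries. The groups did not overlap, with a log2 fold change of 0.43 (SE 0.07, adjusted p = 0.0059 by limma). *Bnip3*, a hypoxia-induced gene for a mitophagy receptor, rose from 2735, 2645 and 2838 to 3613, 3622 and 3795, a log2 fold change of 0.42 (SE 0.04, adjusted p = 0.00040 by limma). *Bcl2l13*, a mitophagy receptor with BCL2 homology, rose by 0.15 (SE 0.04, adjusted p = 0.043 by limma), a call that was lost without any 1 of the libraries except DHT replicate 1 (adjusted p of up to 0.173), without the intensity trend (0.141), with quantile normalization (0.067) and with scaling to the same total (0.073). The adjusted p of *Bok* was 0.059 without the intensity trend.

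Of the other anti-apoptotic BCL2 family genes, 2 of 5 were tested and neither was called by limma or had an unadjusted p under 0.05, with a median log2 fold change of -0.62. *Bcl2l2*, which encodes BCL-W, had a log2 fold change of 0.07 (adjusted p = 0.486 by limma). *Bcl2l10*, known from oocytes, was at 77.2, 45.5 and 18.5 in the control libraries and at 36.2, 2.18 and 39.2 in the DHT libraries, a log2 fold change of -1.30 (SE 0.91, adjusted p = 0.426 by limma). Of 7 oocyte markers, all were tested and none was called by limma or had an unadjusted p under 0.05, and their sum was 347 to 807 in control and 117 to 606 in DHT libraries, with *Zp3* at 0 in DHT replicate 2. Their part in the *Bcl2l10* values was not tested.

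Downstream, none of 13 genes of the apoptosome and caspases was called by limma and 3 had an unadjusted p under 0.05, with a median log2 fold change of -0.06. The smallest p among them was that of *Htra2*, a mitochondrial protease that can antagonize XIAP, with a log2 fold change of 0.17 (SE 0.05, adjusted p = 0.0505 by limma). Of the inhibitor of apoptosis proteins besides *Xiap*, 1 of 5 fell and none rose, with a median of -0.12. *Naip1* stood at 348, 247 and 297 in the control libraries and at 118, 147 and 135 in the DHT libraries, a log2 fold change of -1.14 (SE 0.14, adjusted p = 0.0013 by limma). It belongs to a family of near-identical genes, so its reads are uncertain. Of the death receptors, ligands and adaptors, 1 of 9 fell, with a median of 0.01. This was *Tnfrsf21*, or death receptor 6, with a log2 fold change of -0.25 (SE 0.07, adjusted p = 0.038 by limma), and the call was lost without any 1 of the libraries except control replicate 3 (adjusted p of up to 0.124) and also without the intensity trend (0.074).

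Of p53 and its targets, 1 of 13 rose and 1 fell, with a median log2 fold change of -0.12. *Gadd45a*, a stress-induced gene that FOXO factors also activate, rose from 3196, 3015 and 3471 to 4390, 4731 and 5211, a log2 fold change of 0.56 (SE 0.07, adjusted p = 0.0012 by limma). *Perp*, which encodes a desmosomal protein, fell from 619, 603 and 522 to 317, 359 and 315, a log2 fold change of -0.81 (SE 0.09, adjusted p = 0.00067 by limma). Neither group pair overlapped.

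Of the genes of FOXO and PI3K-AKT control, 2 of 14 rose and 1 fell, with a median log2 fold change of 0.07. *Sgk1*, a kinase that phosphorylates FOXO3, rose from 14950, 15784 and 16798 to 26137, 25785 and 29070, a log2 fold change of 0.77 (SE 0.06, adjusted p = 0.00012 by limma). *Foxo3* itself rose from 6359, 5993 and 5892 to 8355, 8887 and 9229, a log2 fold change of 0.54 (SE 0.05, adjusted p = 0.00024 by limma). *Foxo1*, the FOXO gene of growing follicles, fell by 0.22 on the log2 scale (SE 0.05, adjusted p = 0.030 by limma), a call lost without any 1 of the libraries except control replicate 3 (adjusted p of up to 0.107) and also without the intensity trend (0.131).

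The MCL1 and BIM turnover list, of genes that set how long these proteins last, had 1 of 9 genes higher and 1 lower, with a median of 0.03. *Fbxw7*, which selects MCL1 for ubiquitination, rose from 1095, 1225 and 1391 to 2027, 1713 and 1747, a log2 fold change of 0.57 (SE 0.09, adjusted p = 0.0050 by limma, and 0.057 without the intensity trend). *Usp9x*, which removes ubiquitin from MCL1, fell from 16689, 15015 and 17611 to 14211, 13528 and 12838, a log2 fold change of -0.28 (SE 0.06, adjusted p = 0.022 by limma). The call of *Usp9x* was lost without control replicate 1, DHT replicate 2 or DHT replicate 3 (adjusted p of up to 0.094) and also without the intensity trend (0.111). The protein levels were not measured in these files.

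Of the atresia and survival hormone genes, 5 of 13 fell and none rose, with a median log2 fold change of -0.04. Of all genes, 4.66% were called lower and 6.52% higher. The largest rise in value, not called, was that of *Lhcgr*, with a log2 fold change of 1.38 (SE 0.48, adjusted p = 0.110 by limma). Its counts were low, at 36.2 ± 26.1 in control and 79.5 ± 14.4 in DHT-treated GCs. The study, with DESeq2, reported *Lhcgr* as raised by DHT. *Kitl*, the GC ligand of the oocyte's KIT receptor, fell from 12229, 8659 and 10840 to 5925, 5952 and 5603, a log2 fold change of -0.85 (SE 0.10, adjusted p = 0.0012 by limma). *Esr2*, the estrogen receptor of GCs, fell from 5719, 5229 and 5409 to 4246, 4415 and 4071, a log2 fold change of -0.36 (SE 0.05, adjusted p = 0.0015 by limma). The progesterone receptor gene *Pgr* fell by 1.42 on the log2 scale (SE 0.27, adjusted p = 0.010 by limma), at low counts of 27.8 ± 3.33 in control and 9.83 ± 1.85 in DHT-treated GCs. The GC transcription factor genes *Gata4* and *Foxl2* had log2 fold changes of -0.21 (adjusted p = 0.027 by limma) and -0.15 (adjusted p = 0.049). The call of *Gata4* was lost without control replicate 2 or any 1 of the DHT replicates (adjusted p of up to 0.097) and also without the intensity trend (0.120), and that of *Foxl2* without any 1 of the libraries except control replicate 3 (adjusted p of up to 0.145) and also without the intensity trend (0.131).

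**Figure D5:**
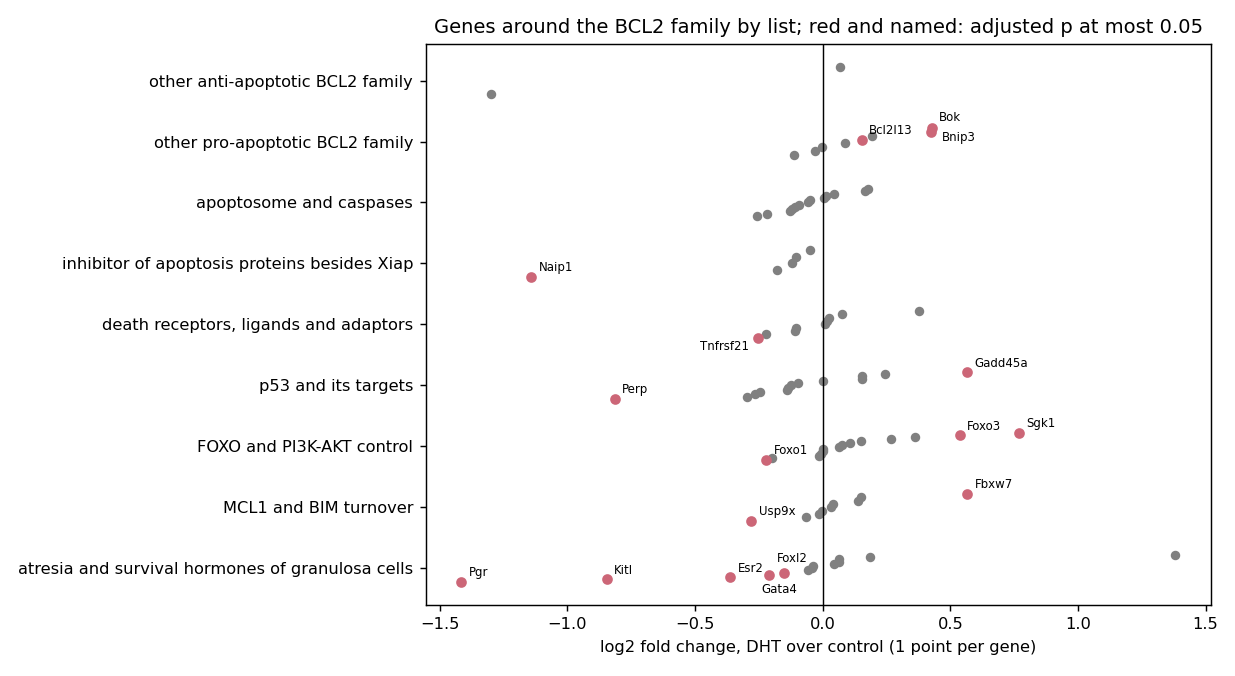
Log2 fold change of DHT over control (x axis) for each tested gene (a point) of the 9 lists around the BCL2 family (y axis, with points spread vertically within a list for legibility), in red and named where the adjusted p was at most 0.05. The red points lie on both sides of 0, from *Pgr* at -1.42 to *Sgk1* at 0.77, and the list of apoptosome and caspases has none.

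The genes whose log2 values were most like those of *Bmf* over the 6 libraries were *Nadk* (Pearson r = 0.998), *Mfsd13a* (0.997), *Bmper* (0.996), *Stra6* (0.995) and *Fyttd1* (0.993), out of 12704 genes with a mean of at least 50. They were picked for this likeness, and with 6 points that fall into 2 groups, r says mainly that these genes too were higher in each DHT library. *Stra6*, the receptor for retinol-binding protein, stood at 253, 243 and 225 in the control libraries and at 398, 569 and 666 in the DHT libraries, with DHT replicate 3 the highest, as for *Bmf*.

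The cells were checked against marker lists. Of 9 GC markers, *Inha*, *Nr5a2*, *Inhbb* and *Kitl* had control means of 54181, 14834, 11817 and 10576, while *Fshr* and *Amh* were low at 150 and 130. In DHT-treated GCs 1 marker was higher (*Hsd17b1*, log2 fold change 0.48, a call lost without the intensity trend, adjusted p = 0.059 by limma) and 4 were lower (*Inha*, -0.61, and *Kitl*, *Esr2* and *Foxl2*), and *Cyp19a1* was not analysed here. None of 6 markers of theca and stroma, 4 of endothelium and 5 of surface epithelium was called by limma, and 1 of them, of theca and stroma, had an unadjusted p under 0.05. Their sums in the control libraries were 3527 to 4462, 150 to 179 and 651 to 1088, in that order. Most of the first came from *Col3a1* and *Col1a1*, with control means of 2403 and 1295. The absence of a call is thus no measure of purity. Of 4 leukocyte markers 1 was lower (*Csf1r*, -0.64, a call lost without control replicate 1, DHT replicate 2 or DHT replicate 3), and their sum was 471 to 546 in control and 362 to 605 in DHT libraries. Of the 3 luteal markers, *Ptgfr*, the prostaglandin F receptor gene, was higher (1.95, adjusted p = 0.048 by limma), a call lost without any 1 of the libraries except control replicate 3, without the intensity trend (adjusted p = 0.177 by limma) and with quantile normalization (0.051). Its log2 fold change was 1.33 without control replicate 2 and 2.68 without control replicate 3. The values summed to between 36111177 and 41928585 reads on the listed genes of a library, with the smallest step between values taken as 1 read.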

How the data were processed

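RNA-seq of 6 libraries gave transcript levels. Per the submitters' processing notes and the study's methods, the authors trimmed reads with Trimmomatic 0.36, mapped them to GRCm38 with STAR 2.5.2b and assigned uniquely mapped reads to exons with featureCounts of Subread 1.5.2. The deposited signal is a normalized count, a gene's reads over the size factor that DESeq2 gave the library, and the authors removed low genes. The deposited fold changes and p-values were not used.

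Groups came from the treatment characteristic. Values were analysed as log2(value + 1), which understates the change of low genes, in limma (version 3.58.1, R 4.3.3) with its intensity trend. Genes whose mean reached 10 entered the fit, with Benjamini-Hochberg adjustment over all of them. All values were whole multiples of 1 step per library (within 0.001 reads). The reads on the listed genes were summed with this step taken as 1 read, which could not be verified in control replicates 1 and 2 and DHT replicate 1. Intervals cover the spread between libraries. Gene positions and exon lengths came from GENCODE (GRCm38) and promoters from RefSeq. The members and lists were chosen with earlier results of these data known. Named were all members, up to 5 called genes of each list with the smallest adjusted p or, with none called, the gene with the smallest p, and the 5 genes most like the member with the smallest p. *Bcl2l2*, the marker genes and the *Zp3* value were named after their values were seen. The alternatives were pseudocounts of 0.5 and 8, other filters, quantile normalization, no intensity trend, a replicate block and each library left out. Of the planned lists and ratios, 1 gene is not reported here. The fit was tested on simulated data.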

Additional observations from a re-analysis of the deposited data

How the results depend on the processing

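The members' call of 1 gene, *Bmf*, held under pseudocounts of 0.5 and 8, no filter, a mean of at least 50, quantile normalization, the replicate block and each library left out, with a log2 fold change of 0.47 to 0.68. It was lost without the intensity trend (0 members, *Bmf* log2 fold change 0.57, adjusted p = 0.052 by limma), where 804 genes in all and 9 of the wider lists were called. Under the replicate block, 990 genes and 11 of the wider lists were called, and *Bmf* stayed called. The calls of *Bcl2l13*, *Tnfrsf21*, *Foxo1*, *Usp9x*, *Foxl2*, *Gata4* and *Csf1r* were lost under the block (adjusted p of 0.054 to 0.133 by limma). Same-numbered libraries deviated with correlations of 0.0058, 0.067 and -0.24, so the numbers were not taken as pairs, and the block leaves each difference of log2 ratios the same by construction. With a mean of at least 50, 131 genes passed both thresholds in place of 213. Scaling to the same total, chosen after seeing the data, gave 907 genes higher and 1012 lower in place of 1063 and 760, with a median log2 fold change of -0.03 over all genes. It gave an adjusted p of 0.051 for *Bax* by limma, and *Bmf* was still called.

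Leaving out 1 library at a time gave 1 to 2 members (*Mcl1*, with log2 fold changes of 0.079 to 0.18, joined without control replicate 3), 931 to 2094 genes in all, 138 to 286 past both thresholds and 11 to 24 of the wider lists. The log2 fold changes that crossed 0 ranged from -0.054 to 0.025 for *Bak1*, -0.049 to 0.023 for *Bcl2l11* and -0.068 to 0.068 for *Bbc3*, and the differences of log2 ratios from -0.18 to 0.077 for *Bcl2*/*Bax* and -0.091 to 0.029 for *Bcl2l1*/*Bax*. None of these passed a test, and the cause was not tested. The planned TMM scaling and the edgeR and DESeq2 tests were not run. They need counts, and the step of the values could not be verified as 1 read in control replicates 1 and 2 and DHT replicate 1. The number of libraries limits the precision, and *Bcl2l10*, *Pgr*, *Lhcgr* and the oocyte markers also have few reads.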
